A study of Mus musculus with 24 samples.

Results

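The genes of cholesterol synthesis, uptake and export were followed through 28 days of culture of mouse calvarial osteoblasts. A fixed list of 30 genes was matched by symbol to the deposited array table, and 28 of the 22180 genes with a symbol of their own on the array were found. Acat2 and Idi1 are not analysed here. The 28 genes are 5 of the mevalonate steps, 11 of the squalene and sterol steps, 5 that control the SREBP transcription factors, 3 that move cholesterol inside the cell, and 4 of the LXR and export branch. All 28 lay at or above the median of their array on every array, and all 28 were among the 14892 genes tested.

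The cells were primary osteoblasts, the bone-forming cells, taken from the skull vault of C57BL/6J pups 7 to 10 days old and used at passage 2. Of the 8 groups, 4 came from wild-type mice and 4 from mice labelled as β-arrestin 2 (Arrb2) knockouts on the same background, a deletion of the whole animal and not of the osteoblast alone. RNA was taken on days 2, 5, 10 and 28 with 3 arrays for each genotype and day, which gave 24 arrays. All groups were kept in medium with 10% heat-inactivated fetal bovine serum, itself a source of lipoprotein cholesterol. Ascorbic acid (50 mg/L) and β-glycerophosphate (5 mM), which drive osteoblast differentiation, were added from day 3, so the day 2 cells of both genotypes had not received them. The labels describe each replicate as a separate preparation of cells and do not say whether a number stands for 1 preparation followed over the days.

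Cholesterol is built from acetyl-CoA through mevalonate, the isoprenoid farnesyl diphosphate, squalene and a series of sterols. When membrane sterol is low, the escort protein SCAP carries the SREBP transcription factors from the endoplasmic reticulum to the Golgi, where they are cut and released to switch on the synthesis genes. When sterol is high, the INSIG proteins hold SCAP back, while oxysterols activate the nuclear receptor LXR, which switches on the exporters ABCA1 and ABCG1 and MYLIP, a ubiquitin ligase that lowers lipoprotein uptake.

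Values are log2 RMA levels, and a difference of 1 is a change of 2-fold. A gene is said to have risen or fallen where the adjusted p from limma was under 0.05 over all 14892 genes tested. The array signal of Arrb2 went against the labels. Arrb2 was higher in the arrays labelled knockout on day 2, with means of 7.09 against 5.88 (2.31-fold, limma adjusted p = 0.0206), and on day 5, with 6.69 against 5.11 (2.99-fold, adjusted p = 0.000357). The difference was 0.82 on day 10 (adjusted p = 0.0932), again without overlap, and 0.40 on day 28 (adjusted p = 0.797), where the arrays overlapped. No source used here says which part of the gene was deleted or whether these probes lie in it. The groups are therefore called labelled wild type and labelled knockout. Of the 9 osteoblast markers measured, Col1a1 lay between 12.96 and 13.84 on all 24 arrays. The late marker Bglap lay between 3.74 and 4.79 on days 2, 5 and 10 and between 4.76 and 7.25 on day 28. From day 2 to day 28, 3 of the 9 rose and 1 fell in the labelled wild type, against 19.6% and 19.2% of all tested genes. In the labelled knockout 7 rose and 0 fell, against 19.4% and 18.6%. The faller was Sp7, at 8.56, 8.18 and 8.63 on day 2 and 6.79, 5.89 and 8.03 on day 28.

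The promoters of the synthesis genes are known to hold a sterol regulatory element, which SREBP binds, beside sites for the factors NF-Y (CCAAT) and SP1 (GGGCGG). Windows of 300 bases, from 250 before to 50 after the gene start (RefSeq, GRCm38.p6), were given for 22 of the 28 genes. The letters TCACNCCAC, a single form of the element, were present on either strand in 1 of the 22, Hmgcs1, against 1.44% of 27025 genes. CCAAT was found in 19 of 22 against 41.1% of genes, and GGGCGG in 20 of 22 against 38.2%. All 4 mevalonate genes and all 9 squalene and sterol genes with a window held CCAAT. In the LXR and export branch 1 of 3 did. These are letter matches with no test, and a match at either strand was counted even where it touched another. These 4 windows are shown because they belong to genes whose levels are followed in detail: the first enzyme of the mevalonate branch, the enzyme that closes the sterol rings, the sterol-sensing retention protein, and the main exporter. Capitals mark TCACNCCAC and CCAAT, the latter as ATTGG where it lies on the other strand.
Hmgcs1: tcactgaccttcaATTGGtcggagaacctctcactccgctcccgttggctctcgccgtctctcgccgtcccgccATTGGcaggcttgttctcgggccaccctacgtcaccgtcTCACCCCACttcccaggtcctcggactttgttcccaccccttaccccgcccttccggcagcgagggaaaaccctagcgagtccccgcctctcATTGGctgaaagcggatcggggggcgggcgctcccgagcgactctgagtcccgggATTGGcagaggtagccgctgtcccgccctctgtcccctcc
Lss: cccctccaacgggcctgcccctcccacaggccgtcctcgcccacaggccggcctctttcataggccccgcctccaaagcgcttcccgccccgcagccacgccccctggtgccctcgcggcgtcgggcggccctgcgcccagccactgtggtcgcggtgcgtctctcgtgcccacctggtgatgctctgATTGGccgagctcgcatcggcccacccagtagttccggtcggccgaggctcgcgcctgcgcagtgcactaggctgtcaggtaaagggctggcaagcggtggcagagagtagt
Insig1: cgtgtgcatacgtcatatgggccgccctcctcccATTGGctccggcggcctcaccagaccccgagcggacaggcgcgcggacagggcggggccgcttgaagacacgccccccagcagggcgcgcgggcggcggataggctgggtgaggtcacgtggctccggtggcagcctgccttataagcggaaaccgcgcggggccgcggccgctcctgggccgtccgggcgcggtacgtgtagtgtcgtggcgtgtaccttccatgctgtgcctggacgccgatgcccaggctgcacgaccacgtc
Abca1: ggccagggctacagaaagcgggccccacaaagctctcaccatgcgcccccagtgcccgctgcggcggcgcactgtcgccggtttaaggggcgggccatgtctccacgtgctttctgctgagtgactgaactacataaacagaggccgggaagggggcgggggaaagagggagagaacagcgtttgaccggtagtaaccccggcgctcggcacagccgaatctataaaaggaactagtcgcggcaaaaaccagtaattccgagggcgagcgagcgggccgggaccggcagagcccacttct
They lie at chr13:119690101-119690400 (Hmgcs1, + strand), chr10:76531355-76531654 (Lss, + strand), chr5:28071162-28071461 (Insig1, + strand) and chr4:53159846-53160145 (Abca1, - strand). The Hmgcs1 window held TCACCCCAC starting at base -137 from the gene start and 4 copies of CCAAT. Lss and Insig1 held 1 copy of CCAAT each and Abca1 held 0.

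Between day 2 and day 5, 12 of 28 genes rose in the labelled wild type, 7 of them synthesis genes, and 0 fell. Of all tested genes 5.55% were called in that comparison, 2.85% as rises and 2.69% as falls. The median difference of the 28 was 0.85 against -0.0092 over all tested genes. The 3 arrays of day 5 all lay above those of day 2 for 21 of the 28 genes, a pattern seen for 11.6% of all tested genes. Of the 28 differences 25 were positive in the labelled wild type and 3 were negative. In the labelled knockout all 28 were positive, with a median of 0.58. There 2 genes rose, against 1.54% of all tested genes that rose and 2.77% called. Arrays did not overlap for 11 of 28, against 12.2% of all tested genes. With replicate number as a block the labelled knockout had 5 risers instead of 2. Without replicate 1 of labelled knockout day 5, the array with the lowest level of 16 of the 16 synthesis genes, it had 7, and without replicate 2 or 3 of that day it had 0. Without any one array of its day 2 it had 1. Without replicate 1 of labelled wild-type day 5, the labelled wild type had a count of 4, of which 3 (Hmgcs1, Insig2 and Npc2) were among the 12 and Abca1 was added. Without all 4 arrays of its replicate 1, 0 of the 12 were called (adjusted p from 0.0539 for Insig2 upward) and the count of 1 was Abca1. The rises of Hmgcs1, Insig2 and Npc2 held with each single array left out in turn, and the other 9 were lost without replicate 1 of day 5 (highest adjusted p with any array left out between 0.0501 and 0.193). The difference between the genotypes in this change was tested for each gene, and 0 genes of the list passed in limma (0 at an unadjusted p under 0.05, against 1.24% of all tested genes, with 0% called), so the larger count in the labelled wild type is not shown to be a difference of response.

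Between day 5 and day 10 the list split in the labelled wild type. Of the 28 genes 7 fell, against 4.46% of all tested genes that fell, and 2 rose, against 6.02%, with 10.5% called in either direction. The genes that fell were synthesis genes and Insig2, and those that rose were Nr1h3 and Abca1. Without replicate 1 of day 5 the count was 2, without replicate 2 of day 10 it was 4, without replicate 3 of day 10 it was 3, and without all 4 arrays of replicate 1 it was 1, the rise of Abca1. The fall of Lss held with each single array left out. Nr1h3 was lost without replicate 3 of day 5 (adjusted p = 0.0543), and the other 7 without replicate 1 of day 5 (highest adjusted p with any array left out between 0.0753 and 0.184). For the labelled knockout 0 genes were called by limma (3 at an unadjusted p under 0.05, against 20.2% of all tested genes, the smallest adjusted p being 0.158 for Lss), against 4.76% of all tested genes called, although all 28 differences had the same sign as in the labelled wild type. From day 10 to day 28 the labelled wild type had 0 calls in limma, against 1.02% of all tested genes (3 at an unadjusted p under 0.05, against 10.5%). Srebf1 came nearest, at 0.54 with an adjusted p of 0.0625.

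The labelled knockout changed in that last interval. From day 10 to day 28, 4 synthesis genes fell, against 0.329% of all tested genes that fell, and Nr1h3 rose, against 1.32% that rose and 1.65% called in all. The arrays of day 28 all lay below those of day 10 for 10 of 28 genes, against 9.12%. With the replicate block 12 genes were called, 3 higher and 9 lower, the added ones being Hmgcs1, Mvd, Lss, Hsd17b7, Stard4, Abca1 and Abcg1. The count was 0 without replicate 1 of day 10, replicate 1 of day 28, replicate 2 of day 28 or all 4 arrays of replicate 2. It was 1 without replicate 2 of day 10, 2 without replicate 3 of day 28 and 8 without replicate 3 of day 10. Over the whole course, day 28 against day 2, 10 of 28 rose in the labelled wild type, against 38.8% of all tested genes called and 19.6% that rose, and in the labelled knockout 5 rose and 7 fell, against 38%, 19.4% and 18.6%. The share called in either direction is near that background in both genotypes. None of the 10 calls of the labelled wild type was a fall, while 19.2% of all tested genes fell. In the labelled wild type the calls of Pmvk, Tm7sf2 and Insig2 were lost without replicate 2 of day 2 or replicate 1 of day 28 (adjusted p at most 0.106). Those of the labelled knockout for Sqle, Lss, Hsd17b7, Srebf2 and Stard4 were lost without replicate 3 of day 28, which leaves a count of 7 (adjusted p with any array left out at most 0.209). Centring each array on its median moved the typical gene by -0.165 in the labelled wild type and -0.174 in the labelled knockout from day 2 to day 28, and with that scaling the calls of the labelled wild type were 7 higher and 1 lower.

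**Figure D1:**
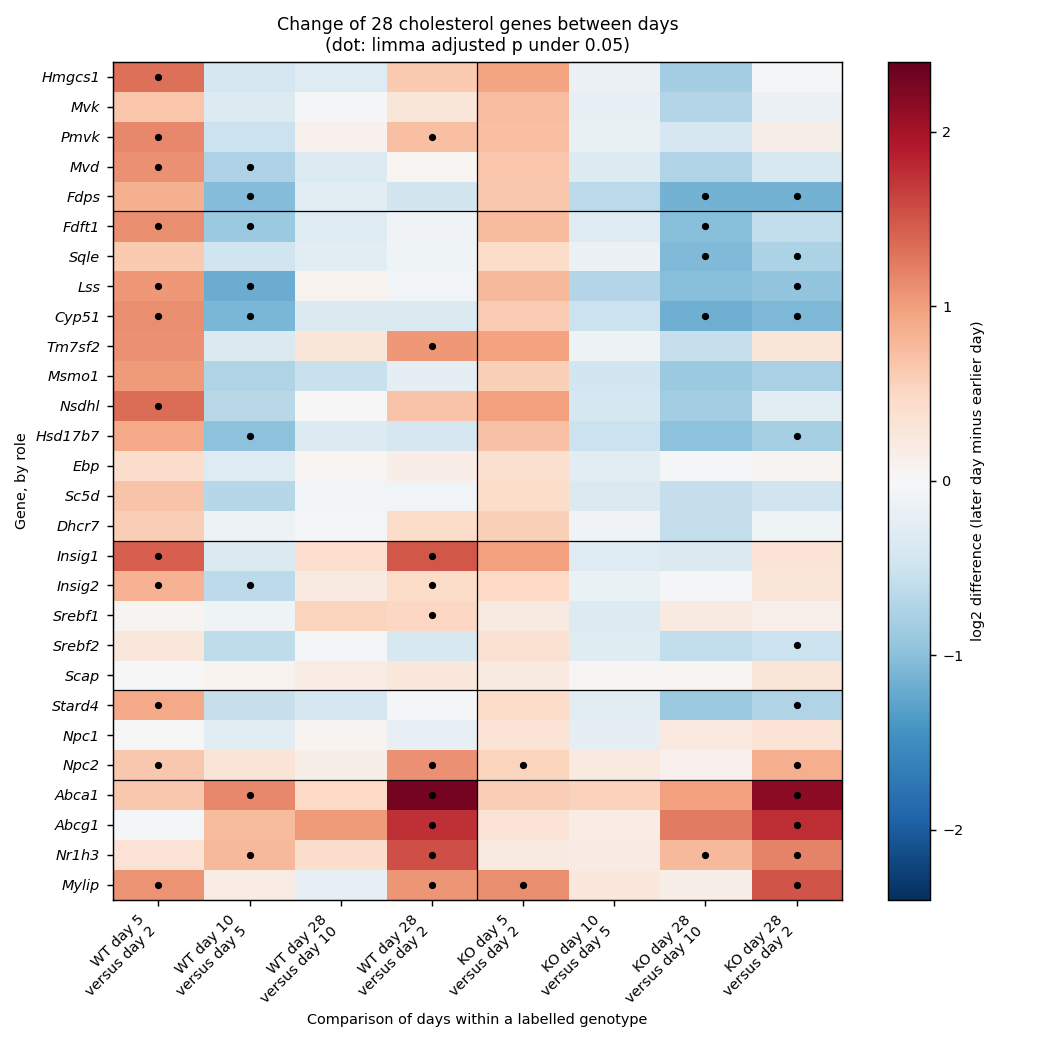
Log2 difference of each of the 28 genes (vertical axis, in order of role) in the 4 day comparisons of each labelled genotype (horizontal axis), with WT and KO for labelled wild type and labelled knockout, colour for the size and direction and a dot where limma's adjusted p was under 0.05. From day 2 to day 5 the labelled wild type has 12 dots, all on rises, and from day 2 to day 28 the LXR and export genes at the foot have a dot in both genotypes.

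The mevalonate steps make the isoprenoid units from which sterols are built. All 5 measured genes had positive differences from day 2 to day 5 in both genotypes, and 3 rose in the labelled wild type. Hmgcs1, the synthase of the HMG-CoA that feeds the pathway, stood at 9.94, 9.91 and 9.60 on day 2 of the labelled wild type, 11.28, 11.21 and 10.94 on day 5, 10.95, 10.98 and 10.31 on day 10, and 10.67, 10.50 and 10.15 on day 28. The labelled knockout arrays of Hmgcs1 read 10.01, 10.41 and 9.88, then 10.46, 11.27 and 11.38, then 10.95, 11.53 and 10.22, then 10.29, 10.09 and 9.85. The day 5 arrays of both genotypes lay above all their day 2 arrays, and by day 28 the labelled knockout overlapped its day 2 range while the labelled wild type did not. Hmgcs1 rose by 1.33 (SE 0.281, limma adjusted p = 0.00766) from day 2 to day 5 in the labelled wild type, 2.51-fold. The difference in the labelled knockout was 0.94 (adjusted p = 0.0829), and with the replicate block the adjusted p was 0.0268.

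Pmvk, the second kinase acting on mevalonate, read 6.92, 6.87 and 7.17 on day 2, 8.41, 7.78 and 8.21 on day 5, 7.97, 7.54 and 7.35 on day 10 and 7.96, 7.72 and 7.46 on day 28 of the labelled wild type. Its labelled knockout arrays were at 6.89, 7.20 and 7.36, then 7.29, 7.99 and 8.34, then 7.66, 8.06 and 7.37, then 7.20, 7.47 and 7.23. Only the labelled wild type was clear of its own day 2 arrays on every later day. Pmvk rose there by 1.15 (SE 0.241, adjusted p = 0.00734) to day 5 and was still 0.73 above day 2 on day 28 (adjusted p = 0.0207, or 0.0924 at most with 1 array left out). The day 28 difference in the labelled knockout was 0.15 (adjusted p = 0.679), and the difference between the genotypes in this change did not pass (-0.58, adjusted p = 1.00).

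Mvd, which decarboxylates the phosphorylated mevalonate, was at 7.21, 7.20 and 7.08, then 8.72, 8.08 and 7.99, then 7.88, 7.51 and 7.18, then 7.42, 7.28 and 6.92 in the labelled wild type. It rose by 1.10 (adjusted p = 0.00661) and then fell by 0.74 (adjusted p = 0.0427) from day 5 to day 10, and the day 5 arrays overlapped neither neighbour. Levels of Mvd in the labelled knockout were 7.22, 7.29 and 7.22, then 7.52, 7.91 and 8.30, then 7.76, 7.86 and 7.15, then 6.82, 7.10 and 6.70, with no call between any of the days compared, except from day 10 to day 28 with the replicate block (-0.71, adjusted p = 0.0426).

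Fdps, the synthase of farnesyl diphosphate, where the sterol and the other isoprenoid branches part, was at 9.05, 8.99 and 9.34, then 10.12, 9.69 and 10.15, then 9.10, 8.94 and 8.78, then 8.96, 8.84 and 8.27 in the labelled wild type. The labelled knockout gave 8.84, 9.38 and 9.56, then 9.20, 10.00 and 10.51, then 9.38, 9.70 and 8.72, then 8.09, 8.31 and 8.00. Every day 28 array of the labelled knockout lay below every other labelled knockout array. Fdps fell from day 5 to day 10 in the labelled wild type (-1.05, SE 0.283, adjusted p = 0.0212). In the labelled knockout it differed by -0.64 from day 5 to day 10 without a call, and fell from day 10 to day 28 (-1.13, SE 0.283, adjusted p = 0.0471). This call was lost with 5 of 6 arrays left out in turn (adjusted p up to 0.189). The gene was 2.18-fold lower on day 28 than on day 2 in the labelled knockout (adjusted p = 0.00366). That last call held with each array left out in turn (adjusted p at most 0.0246). Mvk, the first mevalonate kinase, ranged from 7.34 to 8.84 over all arrays and was not called in any comparison.

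The squalene and sterol steps commit farnesyl diphosphate to cholesterol. All 11 measured genes had positive differences from day 2 to day 5 in both genotypes and negative ones from day 5 to day 10. In the labelled wild type 4 rose and 4 fell in these intervals, with medians of 1.02 and -0.68, and in the labelled knockout the medians were 0.61 and -0.35 with 0 calls in limma (6 and 1 at an unadjusted p under 0.05, against 15.1% and 20.2% of all tested genes). From day 10 to day 28 all 11 were negative in the labelled knockout, and 3 fell.

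Fdft1, squalene synthase, was at 9.10, 9.10 and 8.97 on day 2 of the labelled wild type, 10.56, 9.97 and 9.98 on day 5, 9.65, 9.31 and 8.88 on day 10, and 9.17, 9.03 and 8.71 on day 28. The labelled knockout had 9.01, 9.29 and 9.16, then 9.44, 10.05 and 10.24, then 9.82, 9.92 and 9.03, then 8.76, 8.65 and 8.28. In both genotypes the day 5 arrays were all above the day 2 arrays, and the day 28 arrays of the labelled knockout were below all its others. Fdft1 rose by 1.12 (SE 0.246, adjusted p = 0.0101) and fell by 0.89 (adjusted p = 0.0241) in the labelled wild type, and fell by 1.03 (adjusted p = 0.0392) from day 10 to day 28 in the labelled knockout. The labelled knockout call was lost with 5 of 6 arrays left out in turn (adjusted p up to 0.192).

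Sqle, the squalene epoxidase and a rate-limiting step of the sterol branch, read 8.50, 8.59 and 8.40, then 9.28, 9.03 and 9.06, then 8.70, 8.88 and 8.37, then 8.65, 8.45 and 8.06 in the labelled wild type. Its labelled knockout levels were 8.42, 8.88 and 8.54, then 8.39, 9.17 and 9.58, then 8.88, 9.39 and 8.48, then 7.97, 7.91 and 7.68. The labelled knockout arrays of day 28 were below every other array of either genotype. Sqle fell by 1.06 (SE 0.249, adjusted p = 0.0327) from day 10 to day 28 and was 0.76 lower than on day 2 (adjusted p = 0.0202) in the labelled knockout. With arrays left out in turn, the former call was lost in 5 of 6 cases (adjusted p up to 0.127) and the latter in 2 of 6 (up to 0.0907).

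Lss, the cyclase that folds squalene epoxide into lanosterol, was at 8.24, 7.87 and 7.71, then 9.27, 8.77 and 8.89, then 7.96, 7.86 and 7.55, then 8.07, 7.96 and 7.62 in the labelled wild type. The corresponding labelled knockout values were 7.85, 8.26 and 8.03, then 8.12, 9.17 and 9.20, then 8.18, 8.68 and 7.55, then 7.09, 7.40 and 6.83. In the labelled wild type day 5 stood alone and the other days overlapped, while in the labelled knockout day 28 lay below all other arrays. Lss rose by 1.04 (SE 0.277, adjusted p = 0.0314) and fell by 1.19 (adjusted p = 0.00881) around day 5 of the labelled wild type. The fall to day 10 held with each array left out in turn (adjusted p at most 0.0409). Over the whole course in the labelled knockout the gene fell by 0.94 (adjusted p = 0.0109), and the difference in the labelled wild type was -0.058 (adjusted p = 0.889).

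Cyp51, the lanosterol demethylase, read 8.80, 8.82 and 8.81, then 10.35, 9.61 and 9.79, then 9.12, 8.93 and 8.40, then 8.86, 8.54 and 8.00 in the labelled wild type. The labelled knockout read 8.71, 9.24 and 9.05, then 8.98, 9.81 and 10.03, then 9.21, 9.57 and 8.47, then 8.00, 8.09 and 7.67. The day 5 arrays of the labelled wild type were above all its other arrays. Cyp51 rose by 1.11 (SE 0.296, adjusted p = 0.0314) and fell by 1.10 (adjusted p = 0.0207) there. It fell in the labelled knockout by 1.16 from day 10 to day 28 (adjusted p = 0.0500, just under the threshold) and by 1.08 from day 2 to day 28 (adjusted p = 0.00659). With arrays left out in turn, the former call was lost in 5 of 6 cases (adjusted p up to 0.195) and the latter in 0 of 6.

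Nsdhl, which removes the C4 methyl groups with Msmo1, was at 9.01, 8.67 and 8.89, then 10.55, 9.90 and 10.15, then 9.89, 9.56 and 9.15, then 9.72, 9.82 and 9.08 in the labelled wild type. Nsdhl in the labelled knockout was at 8.79, 9.15 and 9.13, then 9.52, 10.11 and 10.38, then 9.98, 9.88 and 8.88, then 8.94, 8.87 and 8.45. Day 5 was above day 2 in every array of both genotypes, and on day 28 the arrays of the labelled wild type lay above day 2 while those of the labelled knockout overlapped it. Nsdhl rose by 1.35 (SE 0.283, adjusted p = 0.00744), 2.54-fold, in the labelled wild type. The labelled knockout differed by 0.99 (adjusted p = 0.0675, or 0.0435 with the replicate block).

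Hsd17b7, the ketone reductase of the same methyl removal, read 8.35, 8.31 and 8.47, then 9.45, 9.26 and 9.13, then 8.53, 8.43 and 7.95, then 8.18, 8.11 and 7.62 in the labelled wild type, and 8.23, 8.70 and 8.43, then 8.58, 9.41 and 9.47, then 9.03, 8.91 and 7.97, then 8.04, 7.48 and 7.44 in the labelled knockout. It fell by 0.98 (adjusted p = 0.0218) from day 5 to day 10 in the labelled wild type and by 0.80 (adjusted p = 0.0227) from day 2 to day 28 in the labelled knockout. Tm7sf2, a sterol reductase of the endoplasmic reticulum, was at 6.31, 5.92 and 5.98, then 7.77, 6.78 and 6.94, then 7.45, 6.59 and 6.41, then 7.45, 7.43 and 6.45 in the labelled wild type. It stayed above its day 2 arrays to the end, as Hmgcs1, Pmvk and Nsdhl did there. On day 28 it was 1.04 higher than on day 2 (SE 0.348, adjusted p = 0.0225), a call lost with 4 of 6 arrays left out in turn (adjusted p up to 0.0963). The labelled knockout arrays of Tm7sf2 were at 6.02, 6.24 and 6.23, then 6.49, 7.14 and 7.77, then 7.27, 7.30 and 6.45, then 6.54, 6.74 and 6.07, with a day 28 difference of 0.29 (adjusted p = 0.556). The other 4 genes, Msmo1 (the C4 methyl oxidase), Ebp (a sterol isomerase), Sc5d (a desaturase) and Dhcr7 (the last reductase of one route to cholesterol), were not called in any comparison. Their differences from day 2 to day 5 lay between 0.42 and 1.02 in the labelled wild type. With the replicate block, Sc5d was added to the fallers of the labelled wild type from day 5 to day 10 (adjusted p = 0.0482), Tm7sf2, Msmo1 and Hsd17b7 were added to the risers of the labelled wild type at day 5 (adjusted p between 0.0243 and 0.0397), and Fdft1 and Msmo1 to the fallers of the labelled knockout from day 2 to day 28.

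**Figure D2:**
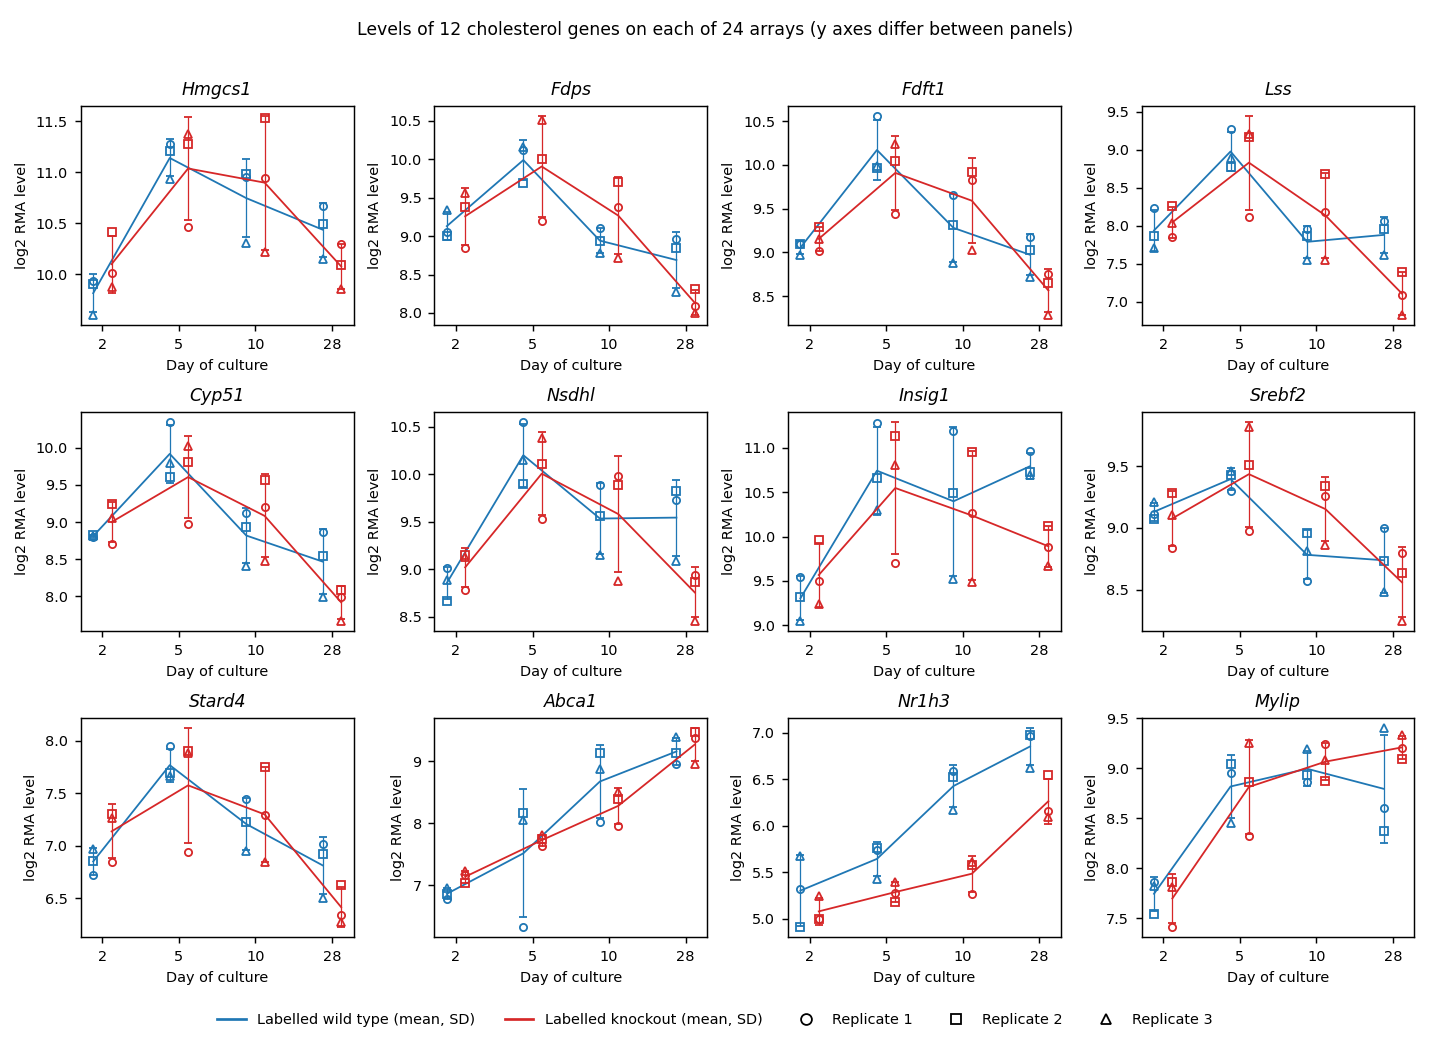
Log2 RMA level (vertical axis, different in each panel) against day of culture (horizontal axis, days evenly spaced) for 12 of the genes; each symbol is 1 array, its shape gives the replicate number, and the line and bar are the mean and SD of 3 arrays. The synthesis genes peak on day 5 in the labelled wild type, where Hmgcs1 lies between 10.94 and 11.28, and Abca1, Nr1h3 and Mylip end above day 2 in both genotypes.

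In several groups 1 array was the lowest or highest for nearly all 16 synthesis genes of these 2 groups of steps. Replicate 1 of labelled knockout day 5 had the lowest level of its group for 16 of 16 genes, and replicate 3 of labelled wild-type day 28 likewise for 16 of 16. Replicate 1 of labelled wild-type day 5 had the highest for 15 of 16. Replicate 3 was the lowest on day 10 for 15 of 16 genes in each genotype. No such order was seen on day 2 of the labelled wild type, where replicates 1, 2 and 3 were the lowest for 1, 10 and 5 genes. The same count over all tested genes was not made. The mean over the 16 genes was 9.56, 9.02 and 9.10 on day 5 of the labelled wild type and 8.51, 9.23 and 9.48 in the labelled knockout. The arrays of labelled knockout day 5 thus spread further than those of day 2, where the mean was 8.19, 8.56 and 8.42.

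Among the SREBP control genes, Insig1, Insig2 and Srebf1 were called in the labelled wild type and Srebf2 in the labelled knockout. Insig1, a sterol-dependent brake on SCAP whose own gene is an SREBP target, was at 9.55, 9.32 and 9.05 on day 2 of the labelled wild type, 11.27, 10.66 and 10.29 on day 5, 11.18, 10.49 and 9.52 on day 10 and 10.96, 10.72 and 10.69 on day 28. The labelled knockout stood at 9.50, 9.96 and 9.24, then 9.70, 11.13 and 10.81, then 10.27, 10.95 and 9.49, then 9.88, 10.12 and 9.67. All day 5 and day 28 arrays of the labelled wild type were above day 2, while in the labelled knockout every later day overlapped day 2. Insig1 rose by 1.44 (SE 0.400, adjusted p = 0.0381) to day 5 and was 2.81-fold above day 2 on day 28 (adjusted p = 0.00562) in the labelled wild type. The first call was lost with 5 of 6 arrays left out in turn (adjusted p up to 0.193) and the second with 0 of 6. The labelled knockout differences were 0.98 (adjusted p = 0.231) and 0.32 (adjusted p = 0.568).

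Insig2, the second retention protein, read 7.70, 7.58 and 7.50, then 8.77, 8.30 and 8.24, then 7.95, 7.76 and 7.73, then 8.10, 7.95 and 8.04 in the labelled wild type. It rose by 0.84 (SE 0.157, adjusted p = 0.00294), fell by 0.63 (adjusted p = 0.0138) to day 10, and was 0.43 above day 2 on day 28 (adjusted p = 0.0343). No labelled wild-type array of a later day reached down to the day 2 range. Insig2 in the labelled knockout read 7.84, 7.81 and 7.70, then 8.31, 8.41 and 8.04, then 8.46, 7.99 and 7.85, then 8.13, 7.90 and 8.20, with no call.

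Srebf2, the SREBP that chiefly drives cholesterol synthesis, was at 9.11, 9.07 and 9.21, then 9.30, 9.43 and 9.46, then 8.57, 8.96 and 8.81, then 9.00, 8.73 and 8.48 in the labelled wild type. The labelled knockout stood at 8.84, 9.28 and 9.11, then 8.98, 9.51 and 9.82, then 9.26, 9.34 and 8.86, then 8.80, 8.63 and 8.25. It fell by 0.52 from day 2 to day 28 there (adjusted p = 0.0447, or 0.0517 with the replicate block), and the 3 arrays of day 28 were below those of day 2. The labelled wild type differed by -0.39 (adjusted p = 0.126). Srebf1, the SREBP more tied to fatty acid synthesis, ranged from 7.26 to 7.44 on day 2 and from 7.82 to 7.94 on day 28 of the labelled wild type and rose by 0.49 (SE 0.135, adjusted p = 0.00635, or 0.0602 with arrays centred on their medians). Scap, the escort protein, stayed between 7.74 and 8.44 on all arrays and was not called.

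Cholesterol transport inside the cell was split. Stard4, which carries sterol between membranes, followed the synthesis genes, at 6.72, 6.86 and 6.97, then 7.95, 7.69 and 7.66, then 7.44, 7.23 and 6.95, then 7.02, 6.92 and 6.50 in the labelled wild type. For the labelled knockout the levels of Stard4 were 6.84, 7.31 and 7.26, then 6.94, 7.91 and 7.88, then 7.30, 7.75 and 6.85, then 6.34, 6.63 and 6.28. Day 5 of the labelled wild type stood above all its other arrays, and day 28 of the labelled knockout below all its others. Stard4 rose by 0.92 (SE 0.241, adjusted p = 0.0283) to day 5 in the labelled wild type and fell by 0.72 (adjusted p = 0.0226) from day 2 to day 28 in the labelled knockout.

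Npc2, the lysosomal protein that hands cholesterol from incoming lipoproteins to NPC1, rose in both genotypes. Its levels were 10.08, 10.10 and 10.10, then 10.89, 10.77 and 10.56, then 11.20, 10.92 and 11.01, then 11.28, 11.10 and 11.16 in the labelled wild type, and 10.30, 10.15 and 10.14, then 10.64, 10.72 and 10.82, then 10.87, 11.13 and 10.90, then 10.97, 11.35 and 10.87 in the labelled knockout. No array of a later day overlapped day 2 in either genotype. Npc2 rose by 0.65 (SE 0.128, adjusted p = 0.00494) and 0.53 (SE 0.128, adjusted p = 0.0282) from day 2 to day 5, and by 1.09 (adjusted p = 1.95e-06) and 0.87 (adjusted p = 3.08e-05) from day 2 to day 28, in the labelled wild type and knockout. Npc1, its membrane partner, was not called. It read 8.20, 8.35 and 8.48, then 7.87, 8.59 and 8.54, then 7.39, 8.32 and 8.52, then 7.99, 8.14 and 8.32 in the labelled wild type, where replicate 1 lay apart on days 5 and 10, and 8.37, 8.01 and 8.31, then 8.67, 8.42 and 8.57, then 8.25, 8.39 and 8.34, then 8.52, 8.93 and 8.24 in the labelled knockout.

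The LXR and export genes ended above day 2 in both genotypes, and Mylip did so by day 5. From day 2 to day 28 all 4 rose in each, with medians of 1.65 and 1.64, their arrays did not overlap (against 25.7% and 22.9% of all tested genes with day 28 wholly above day 2), and the 8 calls held with each array left out in turn and in the other 8 settings run for each (adjusted p at most 0.0291). Together with Npc2 they are the 5 genes of the list called in both genotypes over this span. Abca1, which loads cholesterol onto apolipoprotein A-I, read 6.77, 6.85 and 6.95 on day 2 of the labelled wild type, 6.32, 8.16 and 8.06 on day 5, 8.02, 9.13 and 8.87 on day 10 and 8.96, 9.13 and 9.40 on day 28. In the labelled knockout it read 7.16, 7.03 and 7.22, then 7.63, 7.74 and 7.81, then 7.95, 8.39 and 8.50, then 9.38, 9.48 and 8.96. The labelled knockout arrays were higher on each day than on the one before, without overlap, while replicate 1 of labelled wild-type day 5 lay below its day 2 arrays. Abca1 was 4.93-fold higher on day 28 than on day 2 in the labelled wild type (log2 2.30, SE 0.339, adjusted p = 2.42e-05) and 4.40-fold higher in the labelled knockout (log2 2.14, adjusted p = 6.23e-05). Its rise from day 5 to day 10 in the labelled wild type (1.16, adjusted p = 0.0322) rested on overlapping arrays. Without replicate 1 of day 5 that call was lost and the rise from day 2 to day 5 passed instead (1.25, adjusted p = 0.00748).

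Abcg1, which passes cholesterol to HDL, stood at 5.45, 5.70 and 5.63, then 5.37, 5.72 and 5.59, then 6.17, 6.53 and 6.24, then 7.00, 7.28 and 7.74 in the labelled wild type, and at 5.62, 5.33 and 5.65, then 6.01, 6.15 and 5.45, then 5.89, 6.20 and 6.07, then 7.09, 8.49 and 6.35 in the labelled knockout. Day 28 was above day 10 on every array of both genotypes, and the labelled knockout arrays of day 28 were spread widely, with replicate 2 highest. Abcg1 rose by 1.75 (SE 0.335, adjusted p = 0.000356) and 1.77 (SE 0.335, adjusted p = 0.000328) from day 2 to day 28 in the labelled wild type and knockout.

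Nr1h3, which encodes LXRα, read 5.32, 4.91 and 5.67, then 5.74, 5.76 and 5.43, then 6.59, 6.53 and 6.17, then 6.97, 6.98 and 6.62 in the labelled wild type. In the labelled knockout it read 5.00, 4.99 and 5.25, then 5.28, 5.18 and 5.40, then 5.26, 5.58 and 5.62, then 6.16, 6.54 and 6.09. In the labelled wild type day 10 was already clear of the earlier days, and in the labelled knockout only day 28 was. Nr1h3 rose by 0.78 from day 5 to day 10 in the labelled wild type (SE 0.181, adjusted p = 0.00818) and by 0.78 from day 10 to day 28 in the labelled knockout (SE 0.181, adjusted p = 0.0302). The labelled knockout call was lost with 4 of 6 arrays left out in turn (adjusted p up to 0.189). Over the whole course Nr1h3 rose by 1.55 (adjusted p = 1.69e-06) and 1.19 (adjusted p = 4.15e-05).

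Mylip, whose product lowers lipoprotein uptake, rose early. It was at 7.86, 7.55 and 7.83, then 8.95, 9.04 and 8.45, then 8.86, 8.93 and 9.19, then 8.60, 8.37 and 9.41 in the labelled wild type, and at 7.41, 7.86 and 7.82, then 8.33, 8.86 and 9.25, then 9.25, 8.87 and 9.08, then 9.20, 9.09 and 9.33 in the labelled knockout. All later arrays were above day 2 in both genotypes. Mylip rose by 1.07 (SE 0.241, adjusted p = 0.0115) and 1.12 (SE 0.241, adjusted p = 0.0138) to day 5, and on day 28 was 1.05 (adjusted p = 0.00174) and 1.51 (adjusted p = 6.56e-05) above day 2. Npc2 and Mylip were the 2 genes of the list called from day 2 to day 5 in both genotypes.

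Markers of other cell types moved over the same days as the LXR and export genes. The array holds RNA of the whole culture, so more cells of a type and more RNA per cell cannot be told apart. All 15 macrophage markers and all 11 adipocyte markers rose from day 2 to day 28 in each genotype, and all 11 cell division genes fell. The mean level of the macrophage list was 4.79 to 4.82 on day 2, 4.84 to 5.19 on day 5, 6.51 to 7.31 on day 10 and 7.85 to 8.84 on day 28 of the labelled wild type. In the labelled knockout it was 4.74 to 5.40, then 4.70 to 6.31, then 5.48 to 8.66, then 6.97 to 10.20, and replicate 2 was the highest on each day. The adipocyte list ran from 4.80 to 5.12 on day 2 to between 9.46 and 9.73 on day 28 of the labelled wild type, and from 4.71 to 5.12 to between 8.13 and 8.49 in the labelled knockout. Among defining markers, the macrophage gene Adgre1 lay between 3.73 and 4.07 on day 2 and between 8.34 and 9.53 on day 28 of the labelled wild type, and between 3.61 and 4.90 and between 6.94 and 11.04 in the labelled knockout. The adipocyte gene Adipoq lay between 3.93 and 4.31 and between 8.97 and 9.78 in the labelled wild type, and between 4.09 and 4.40 and between 7.60 and 8.54 in the labelled knockout. No marker is at 0, since RMA gives every gene a level. From day 2 to day 5, Npc2 and Mylip rose in both genotypes, and 7 synthesis genes rose in the labelled wild type and 0 in the labelled knockout. Over that interval limma called 0 of 15 macrophage and 0 of 11 adipocyte markers in each genotype (0 and 1 at an unadjusted p under 0.05 in each). The macrophage differences were positive for 10 of 15 in the labelled wild type (median 0.18) and 15 of 15 in the labelled knockout (median 0.35). Those of the adipocyte markers were positive for 7 and 4 of 11. Without the 4 arrays of labelled knockout replicate 2, the day 28 rises of Npc2, Nr1h3, Abca1, Abcg1 and Mylip in that genotype were still called (adjusted p at most 0.0291). That setting cannot set these cells apart, since both marker lists went up in the arrays that remained. From day 2 to day 28 the macrophage list went from 4.74 to 8.50 in replicate 1 and from 4.81 to 6.97 in replicate 3. The adipocyte list went from 4.71 to 8.26 and from 5.01 to 8.13. The part of these cells in the results, on day 5 or from day 10 onward, was not tested.

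**Figure D3:**
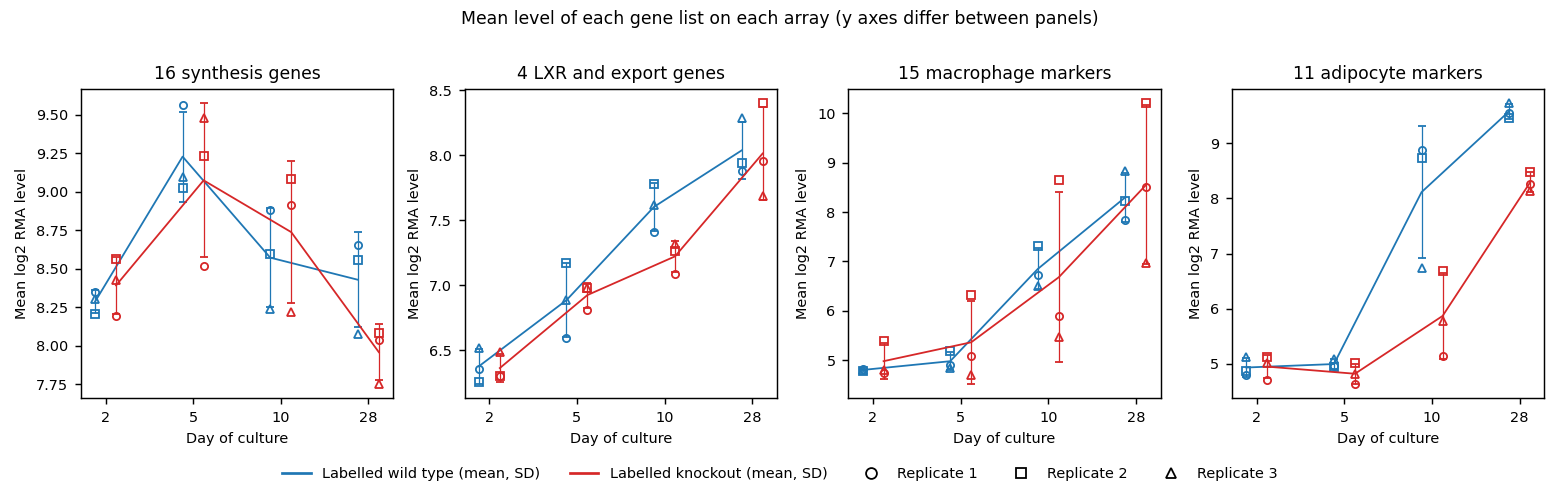
Mean log2 RMA level of 4 gene lists (vertical axis, different in each panel) on each of the 24 arrays by day of culture (horizontal axis); symbols are arrays by replicate number, and lines and bars are means and SD of 3 arrays. The mean of the 16 synthesis genes is highest on day 5 in both genotypes, whereas the LXR and export genes, the macrophage markers and the adipocyte markers are highest on day 28.

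The comparison of genotypes asks whether these genes differed between the labelled knockout and the labelled wild type on a given day. In limma 0 of 28 genes differed on day 2 (with 0.00672% of all tested genes called), 0 on day 5 (0.00672%), 0 on day 10 (0.0336%) and 0 on day 28 (0.228%). At an unadjusted p under 0.05 there were 0, 1, 1 and 6 of 28, against 1.42%, 2.66%, 7.74% and 5.71% of all tested genes. On day 10 the gene nearest the threshold was Nr1h3, at -0.94 (SE 0.181, adjusted p = 0.0660), with all 3 labelled knockout arrays below those of the labelled wild type. Without labelled wild-type replicate 3 of day 10 it passed (adjusted p = 0.0128), as it did without labelled knockout replicate 2 (adjusted p = 0.0367) and with arrays centred on their medians (adjusted p = 0.0439). As a mean over the 4 days Nr1h3 was 0.53 lower in the labelled knockout (SE 0.0904, adjusted p = 0.0137, against 0.188% of all tested genes called), with negative differences on all 4 days. Same-numbered arrays of the 4 days may come from 1 preparation and are then not independent. With genotype and number as a random block, on means over the days of each number, or without the 4 arrays of labelled wild-type replicate 1, the call was lost (adjusted p up to 0.392). Beside it, the adipocyte markers on day 10 were at 6.73 to 8.88 in the labelled wild type and 5.13 to 6.69 in the labelled knockout, and their part in the Nr1h3 difference was not tested.

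On day 28 the synthesis genes lay lower in the labelled knockout without any one of them passing. All 16 had negative differences, with a median of -0.45 and a range from -0.79 to -0.040. Over the whole list 24 of 28 were negative, and the arrays of the 3 labelled knockout samples lay below all labelled wild-type arrays for 8 genes, against 5.63% of all tested genes. The 8 were Sqle, Lss, Nsdhl, Sc5d, Dhcr7, Insig1, Srebf1 and Nr1h3. The difference farthest from 0 was that of Insig1 (-0.90, SE 0.400, adjusted p = 0.797), followed by Nsdhl (-0.79, SE 0.283, adjusted p = 0.599) and Lss (-0.77, SE 0.277, adjusted p = 0.599). Abca1 and Abcg1 differed by 0.11 (SE 0.339) and -0.032 (SE 0.335), and Mylip and Npc1 had positive differences of 0.41 each. Negative differences were not particular to these genes: all 14 genes of fatty acid synthesis and all 11 adipocyte markers were negative on that day as well, with medians of -0.55 and -1.02, and so were all 11 cell division genes (median -0.50).

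**Figure D4:**
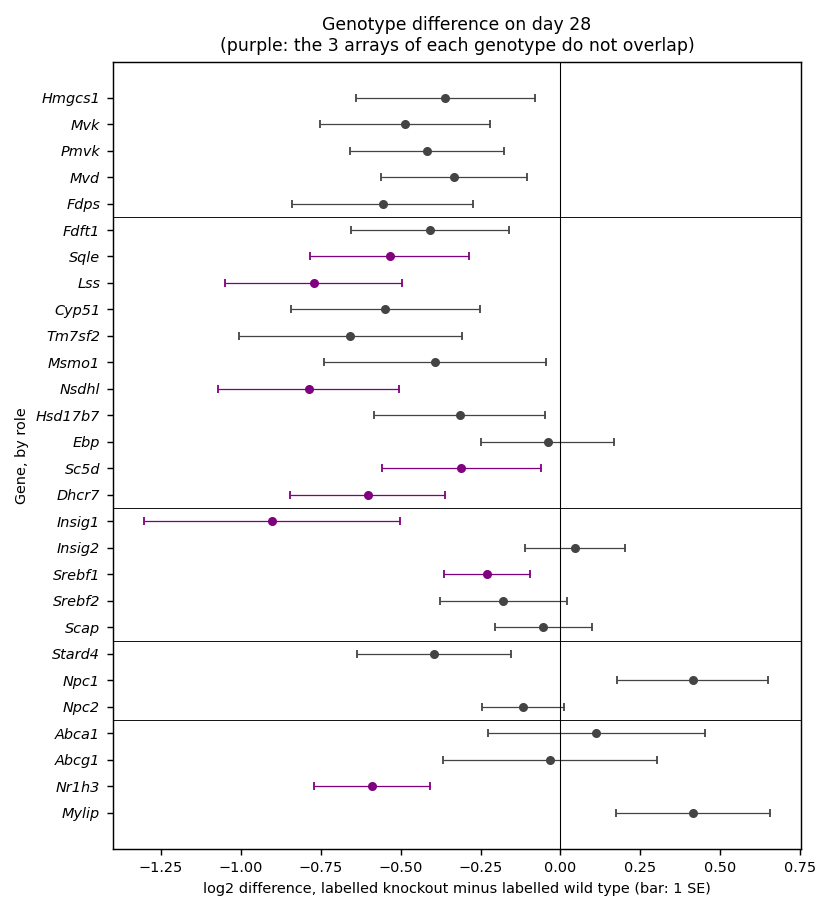
Difference between labelled knockout and labelled wild type on day 28 for the 28 genes (horizontal axis, log2, with bars of 1 SE; vertical axis, genes in order of role). Points for all 16 synthesis genes lie left of 0, and purple marks the 8 genes whose arrays do not overlap between the genotypes; no gene passed the limma test.

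Whether the time course itself differed between the genotypes was tested as the difference of the day changes. An F test over all days called 0 of 28 genes, with 0.00672% of all tested genes called (0 at an unadjusted p under 0.05, against 2.75%). From day 10 to day 28 all 16 synthesis genes had a lower change in the labelled knockout, with a median of -0.65, and Lss was farthest from 0 (-1.12, SE 0.392, adjusted p = 1.00). For that difference 0 genes were called in limma, with 0.00672% of all tested genes called, and 4 of 28 had an unadjusted p under 0.05, against 3.45% of all tested genes.

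Other sterol genes, a list of 32 of which 25 were measured, had calls in both directions. From day 2 to day 5, 1 of 25 rose and 1 fell in each genotype. Of all tested genes 2.85% rose and 2.69% fell in the labelled wild type. In the labelled knockout 2.77% were called, 1.54% as rises. Cyp7b1, an oxysterol hydroxylase, rose by 1.51 (adjusted p = 0.000438) and 1.36 (adjusted p = 0.00216) in the labelled wild type and knockout. Vldlr, a lipoprotein receptor, fell by 2.09 (adjusted p = 0.00996) and 1.81 (adjusted p = 0.0363). From day 5 to day 10, 3 of 25 rose and 2 fell in the labelled wild type, against 6.02% and 4.46% of all tested genes. In the labelled knockout 0 rose and 1 fell, with 4.76% of all tested genes called. The fallers were the lipoprotein receptor gene Lrp8, by 1.78 (adjusted p = 2.55e-05) and 1.23 (adjusted p = 0.00258) in the labelled wild type and knockout, and Scarb1, the HDL receptor gene, by 0.86 (adjusted p = 0.00992) in the labelled wild type. From day 2 to day 28, 6 rose and 3 fell in the labelled wild type and 7 rose and 4 fell in the labelled knockout. These 9 and 11 of 25 are near the 38.8% and 38% of all tested genes called. Apoe, the apolipoprotein that carries exported cholesterol and a gene that macrophages and adipocytes express, rose by 3.19 (adjusted p = 1.15e-05) and 3.02 (adjusted p = 2.62e-05). It also had the largest positive difference of this list from day 5 to day 10 in the labelled wild type, 1.71. Its day 28 levels in the labelled knockout, 8.22, 10.02 and 7.29, were highest in replicate 2, the array with the most macrophage signal, whose part in this was not tested. Lipa, the lysosomal acid lipase that frees cholesterol from incoming esters, rose by 1.45 in each genotype (adjusted p = 0.000732 and 0.000749). Apoc1, an apolipoprotein of triglyceride-rich particles, was lower in the labelled knockout on day 28, at 4.71, 4.98 and 4.53 against 6.21, 6.07 and 6.16 (-1.41, SE 0.171, adjusted p = 0.000568).

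Fatty acid synthesis and desaturation, driven in part by SREBP-1, gave a list of 15 genes, 14 of them measured. In the labelled wild type 3 rose from day 2 to day 5: Acss2, which makes cytosolic acetyl-CoA (1.55, adjusted p = 0.00179), Scd1, a desaturase (1.24, adjusted p = 0.0251) and Elovl6, an elongase (1.17, adjusted p = 0.00577). In the labelled knockout Acss2 (1.21, adjusted p = 0.0166) and Elovl6 (1.14, adjusted p = 0.0111) rose. Of all tested genes 2.85% and 1.54% rose over this interval in the labelled wild type and knockout. Thrsp rose most from day 2 to day 28 in the labelled wild type (3.54, adjusted p = 5.02e-08), followed by Scd1 (2.91), Acss2 (2.64) and Pnpla3 (2.17). By day 28, 7 of 14 were above day 2 in the labelled wild type, and 3 were above and 1 below in the labelled knockout, against 19.6% of all tested genes that rose in the former and 19.4% that rose and 18.6% that fell in the latter. Over that span 13 of the 14 had positive differences in the labelled wild type, where the 16 sterol synthesis genes had 8 positive and 8 negative ones. The lipogenic gene Thrsp was lower in the labelled knockout on day 28, at 6.69, 6.32 and 6.47 against 8.23, 9.00 and 8.17 (-1.97, SE 0.304, adjusted p = 0.00468). The lipase gene Pnpla3 was lower as well (-1.71, adjusted p = 0.0145). Beside them, the adipocyte list was at 8.13 to 8.49 in the labelled knockout and 9.46 to 9.73 in the labelled wild type on day 28. Its part in these differences was not tested.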

How the data were processed

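The deposited table holds log2 values for 41345 transcript clusters on 24 Affymetrix Mouse Gene 2.0 ST arrays, each hybridised from 100 ng of RNA. Per the submitters' processing notes the tools were RMA, which corrects background, quantile-normalizes and summarises probes, and Affymetrix Expression Console. Their versions and the annotation library were not given in the sources used here. Log2 values ran from 0.313 to 14.08, with array medians of 4.55 to 4.72, and were not normalized further. RMA removes a shift common to most genes. No depth applies to arrays, and their number limits the precision.

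Of the clusters, 23521 carried 1 symbol in the platform annotation, 1814 several and 16010 none. Only single-symbol clusters were named, the one with the highest mean where a gene had several, which gave 22180 genes. A gene was tested where it reached the median of its array on at least 3 of 24 arrays. Using limma 3.58.1 (R 4.3.3), 1 mean for each genotype and day was estimated from the 24 arrays together (16 residual and 4 prior degrees of freedom), two-sided, with Benjamini-Hochberg adjustment in each comparison and a threshold of 0.05. Every adjusted p is from limma. The scripts were tested on simulated data.

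The members and the gene lists were chosen with earlier results of these data known. Values on every array are given for members called in both genotypes or in a genotype comparison and for up to 3 others per role with the largest difference. From the other lists up to 4 genes with the largest called change in a comparison are named, and Arrb2 besides. Col1a1, Bglap, Sp7, Adgre1 and Adipoq stand outside this rule as cell type checks, chosen after their values were seen. Deviations from the group means of same-numbered arrays correlated above 0.1 in all 3 pairs for days 5 against 2, 10 against 5, 28 against 10 and 28 against 2 in the labelled knockout (lowest 0.105) and for days 5 against 2 and 10 against 5 in the labelled wild type (lowest 0.254), but not in the other comparisons. Some same-numbered pairs of different genotypes correlated as well, up to 0.516 on day 2 and 0.371 on day 10. The correlations therefore do not settle whether a number stands for 1 preparation. The pairing of the replicate block within a genotype is an assumption taken from the data. Alternatives were other filters, scaling, variance models, cluster rules, fits to 2 groups only, replicate blocks and arrays left out in turn. All comparisons share the day groups, so those of neighbouring intervals are not independent. Promoter windows came from RefSeq tables of GRCm38.p6, and motifs were searched on both strands.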

Additional observations from a re-analysis of the deposited data

How the results depend on the processing

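Counts are of the 28 genes called by limma. With 1 array of the compared groups left out in turn they ranged from 4 to 12 for labelled wild-type day 5 against 2, 2 to 10 for day 10 against 5, 0 to 1 for day 28 against 10 and 7 to 10 for day 28 against 2. The labelled knockout ranges were 0 to 7, 0 to 0, 0 to 8 and 7 to 12. Between genotypes they were 0 to 1 on day 10, 1 to 1 for the mean over days and 0 to 0 on days 2, 5 and 28 and for the F test. The replicate block gave 1 (Srebf1) for labelled wild-type day 28 against 10, 5 for labelled knockout day 5 against 2 and 12 for its day 28 against 10, and with the number shared by the genotypes 1 (Nr1h3) on day 10. Fitted to 2 groups only, both of these labelled knockout counts were 0. For day 28 against 10 of the labelled knockout no filter gave 2 and arrays centred on their medians gave 8; centring also gave 1 for the genotypes on day 10. The mean over days gave 0 with a random replicate block (consensus correlation 0.158) and 0 on means over the days of each number. Chosen after seeing the data, leaving out labelled wild-type replicate 1 on all days gave 1 for day 5 against 2, 1 for day 10 against 5 and 0 for the mean over days. Leaving out labelled knockout replicate 2, whose macrophage markers were the highest of that genotype on each day, gave 0 for its day 5 against 2, 0 for its day 28 against 10 and 1 for the genotypes on day 10. No called gene changed direction in these settings. Centring turned the sign of Mvd from day 2 to day 28 in the labelled wild type and of Pmvk, Ebp and Srebf1 in the labelled knockout. It also turned Nsdhl and Ebp for labelled wild-type day 28 against 10 and Scap for labelled knockout day 10 against 5. Between genotypes it turned Npc2 and Mylip on day 5, Hmgcs1 for the mean over days, and Ebp and Npc1 for the change from day 5 to day 10. None of these genes was called in the comparison where its sign turned. The causes were not tested. Each of the 28 lay at or above its array median on every array; signal over background itself was not measured here.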
